A study of Mus musculus with 6 samples.

Results

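Potassium channel genes were examined in mouse ovarian surface epithelial (MOSE) cells, the single layer that covers the ovary. The set holds every protein-coding gene whose symbol begins with Kcn, without Kcnj16 and without 12 genes that lie on chromosome 14 or in a defined segment of chromosome 3 or 7. Of 94 such genes, all with values in the count tables, 81 remained, among 25006 genes in all. The RNA came from MOSE-PAX8, made to overexpress the transcription factor PAX8, and from MOSE-NEO, with 3 libraries each. Both stable lines were kept under G418 at 0.05 mg/mL. The labels name 1 line per group and give neither the promoter that drives PAX8 nor the origin of the replicates, so the p-values rest on the spread among libraries of a line, and that spread may be only technical. Libraries held 30621528 to 36367825 counts in MOSE-PAX8 and 23623762 to 32057173 in MOSE-NEO. Pax8 had 2570, 2973 and 3544 counts in the MOSE-PAX8 libraries, against 0, 1 and 1 in MOSE-NEO. Of the defining markers of this epithelium, Krt7, Krt18, Wt1, Upk3b, Lrrn4 and Msln were abundant in both lines, at 229 CPM or more in every library. Krt8 was low, with 32 counts in MOSE-PAX8 and 68 in MOSE-NEO, as was Krt19 with 41 and 22. Epcam was at 0 and Cdh1 at 3 counts in MOSE-PAX8 and 1 in MOSE-NEO.

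Potassium channels let potassium leave the cell along its gradient and thereby set the resting membrane potential. Voltage-gated channels open when the membrane is depolarised, inward rectifiers and K2P leak channels conduct near rest, and a further class opens with intracellular calcium or sodium. Auxiliary subunits form no pore and change the gating or the traffic of the channels they bind. In epithelia the leak and inward-rectifier channels also recycle the potassium taken up by the sodium-potassium pump. The 81 genes comprise 25 voltage-gated pore-forming subunits, 10 electrically silent subunits that modify them, 5 calcium- or sodium-activated channels, 11 K2P channels, 14 inward rectifiers and 16 auxiliary subunits.

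The region before the transcription start is shown for 4 of the genes that differed between the lines, the most abundant pore-forming subunit that was higher in MOSE-PAX8 (Kcnk1), an auxiliary subunit that was higher (Kcnab2), and the lower subunits Kcnd2 and Kcnq5. RefSeq gives Kcnab2 3 such regions and Kcnq5 2, and the one with the most CpG dinucleotides is shown for each. Each sequence is the 250 bases before a RefSeq start on GRCm38.p6, 5′ to 3′ on the gene's strand, and they were picked after their values were seen. Kcnk1 is chr8:125994852-125995101 on the plus strand, Kcnab2 chr4:152477550-152477799 on the minus strand, Kcnd2 chr6:21215096-21215345 on the plus strand and Kcnq5 chr1:21961943-21962192 on the minus strand. Capitals mark the letters GCGTGA or their reverse complement TCACGC, which occur in consensus sites of the paired domain that PAX8 shares with its closest relatives.
Kcnk1: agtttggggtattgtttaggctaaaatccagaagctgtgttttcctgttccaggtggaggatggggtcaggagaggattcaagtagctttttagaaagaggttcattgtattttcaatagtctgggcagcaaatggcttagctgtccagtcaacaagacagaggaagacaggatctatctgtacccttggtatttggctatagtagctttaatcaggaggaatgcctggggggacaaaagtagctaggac
Kcnab2: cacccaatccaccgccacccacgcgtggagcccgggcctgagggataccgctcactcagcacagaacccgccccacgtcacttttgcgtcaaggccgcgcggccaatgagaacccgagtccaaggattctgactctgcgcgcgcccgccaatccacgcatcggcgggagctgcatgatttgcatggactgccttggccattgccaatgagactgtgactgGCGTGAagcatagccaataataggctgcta
Kcnd2: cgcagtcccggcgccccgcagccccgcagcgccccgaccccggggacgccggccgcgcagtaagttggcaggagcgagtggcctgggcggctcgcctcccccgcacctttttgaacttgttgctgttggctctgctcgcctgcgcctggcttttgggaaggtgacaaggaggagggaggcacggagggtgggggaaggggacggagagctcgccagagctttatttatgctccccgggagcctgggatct
Kcnq5: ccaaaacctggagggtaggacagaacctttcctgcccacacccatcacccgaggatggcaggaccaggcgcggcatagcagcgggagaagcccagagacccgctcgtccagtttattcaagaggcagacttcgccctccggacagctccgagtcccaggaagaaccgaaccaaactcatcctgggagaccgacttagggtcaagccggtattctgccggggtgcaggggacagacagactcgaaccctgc
These letters were in 1 of the 16 RefSeq promoters of 9 of the 12 genes that differed between the lines, that of Kcnab2. They were in 5.56% of all 32851 promoters of the same length. No promoter was at hand for Kcna1, Kcnd1 and Kcnu1, so these were not searched. Kcnk1 had 0 CpG dinucleotides in the window shown, against 20 for Kcnab2, 22 for Kcnd2 and 14 for Kcnq5. The regions not shown had 3 and 5 for Kcnab2, neither with the motif, and 3 for Kcnq5. The median over all promoters was 6. A match describes the letters and shows no binding.

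Most of these genes were silent or nearly so in both lines. A gene was taken as expressed in a line when it reached 0.5 CPM (counts brought to a common library size with TMM factors) in all 3 libraries, and 18 of 81 (22.2%) did so in MOSE-PAX8 and 15 (18.5%) in MOSE-NEO. Among all protein-coding genes the shares were 53.7% in MOSE-PAX8 and 52.5% in MOSE-NEO. Both lines expressed 13 genes, among them Kcna7, Kcnab1, Kcnab3, Kcnd1, Kcnh1, Kcnh7, Kcnip3, Kcnj2, Kcnk1, Kcnn1, Kcnq5 and Kcnu1. Another 5, Kcna1, Kcnab2, Kcnh2, Kcnj4 and Kcnt2, passed the level in MOSE-PAX8 alone, and 2, Kcnd2 and Kcnip4, in MOSE-NEO alone. The order of the lines depended on the level required. At 1 CPM 11 genes were expressed in MOSE-PAX8 and 12 in MOSE-NEO, and at 0.5 CPM per kilobase of exon (FPKM) 8 were in MOSE-PAX8 and 10 in MOSE-NEO.

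**Figure D1:**
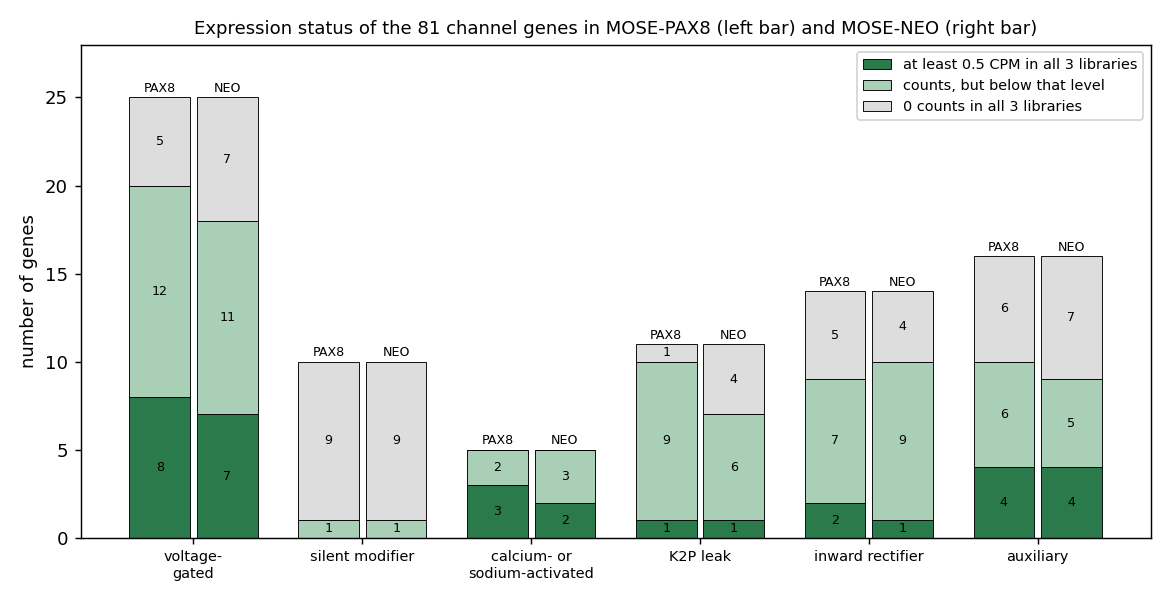
Number of potassium channel genes in each class (y axis) by their status in MOSE-PAX8 (left bar) and MOSE-NEO (right bar); dark green is at least 0.5 CPM in all 3 libraries, light green is counts below that level and grey is 0 counts in all 3 libraries. The 10 silent subunits had no expressed member in either line, and the voltage-gated class had 8 in MOSE-PAX8 and 7 in MOSE-NEO.

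No count was found in any library for 22 genes. These were the voltage-gated subunits Kcnb2, Kcnc2, Kcnh5 and Kcnh8, the silent subunits Kcnf1, Kcng1, Kcng4, Kcns1, Kcns2, Kcns3, Kcnv1 and Kcnv2, the inward rectifiers Kcnj6, Kcnj11 and Kcnj15, the K2P channel Kcnk9, and the auxiliary subunits Kcne1, Kcne1l, Kcne3, Kcnip1, Kcnmb1 and Kcnmb2. A count of 0 allows 3 counts, or 0.0298 CPM over the 3 MOSE-PAX8 libraries and 0.0355 CPM over those of MOSE-NEO, and covers counting error only. Kcnj11 forms the pore of the ATP-sensitive channel, and the genes of its regulatory subunits, Abcc8 and Abcc9, were at 0 as well. A further 27 genes had 1 to 9 counts in total, among them the K2P channels Kcnk2 and Kcnk3 with 9 and 2. The 2 silent subunits with any count, Kcng2 and Kcng3, had 1 each. Kcnj13 had 3 counts in MOSE-PAX8 and 3 in MOSE-NEO, and 49.1% of its exon bases lie within exons of Gigyf2 on the opposite strand, so without a stated strand setting its level is uncertain.

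The auxiliary subunit gene Kcnab1 was the most abundant of the set in both lines. It encodes a cytoplasmic subunit that binds channels of the Kcna family and speeds their inactivation. Per exon length it averaged 32.7 ± 4.13 FPKM in MOSE-PAX8 and 52.1 ± 1.62 FPKM in MOSE-NEO (SD, n = 3 each), and it held 73.6% of the summed CPM of the set in MOSE-PAX8 and 79.6% in MOSE-NEO. The 5 Kcna genes of the set, which encode the pores that it binds, summed to 0.745, 1.08 and 1.01 FPKM in the MOSE-PAX8 libraries and to 0.537, 0.553 and 0.271 FPKM in those of MOSE-NEO. Kcna2, Kcna3 and Kcna10 lie outside the set. Next in level came Kcnk1, which encodes the K2P channel TWIK, at 17.6 ± 2.96 FPKM in MOSE-PAX8 and 7.93 ± 2.14 in MOSE-NEO, and Kcnq5, a subunit of the slow M-type current, at 2.14 ± 0.274 and 4.58 ± 0.396 FPKM. After these, Kcnab3 (0.972 FPKM) and Kcnd1 (0.847 FPKM) led in MOSE-PAX8, and Kcnd1 (1.64 FPKM) and Kcnu1 (1.29 FPKM) in MOSE-NEO.

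The next comparison asked which of these genes differed between the PAX8 line and MOSE-NEO. Kcna1, Kcnk1, Kcnab2 and Kcnh2 rose in MOSE-PAX8, each by more than 2-fold. Kcnu1, Kcnd2, Kcnh1 and Kcnq5 fell by more than 2-fold, and Kcnd1, Kcnip3, Kcnh7 and Kcnab1 fell by less. The quasi-likelihood test of edgeR was run on 12313 genes, and the 20 set members that passed its low-count filter were the same 20 that reached 0.5 CPM in at least 1 line. At an adjusted p below 0.05, 4 rose and 8 fell, while 33.9% of all tested genes were called, 17.9% higher and 16.1% lower. With a fold of at least 2 as well, 4 rose and 4 fell, against 6.07% higher and 3.15% lower over all tested genes. The median log2 fold change was -0.2 over the 20 members and 0.01 over all tested genes. The libraries of the lines did not overlap for 15 of the 20, 6 above and 9 below MOSE-NEO, and for 47.6% of all tested genes. The 7 genes expressed in a single line passed the filter through that line, so these shares do not describe the whole set. In a test against a fold of 1.5 in place of no change, the calls of Kcnab1, Kcnab2, Kcnd1, Kcnh2, Kcnh7 and Kcnip3 were lost.

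**Figure D2:**
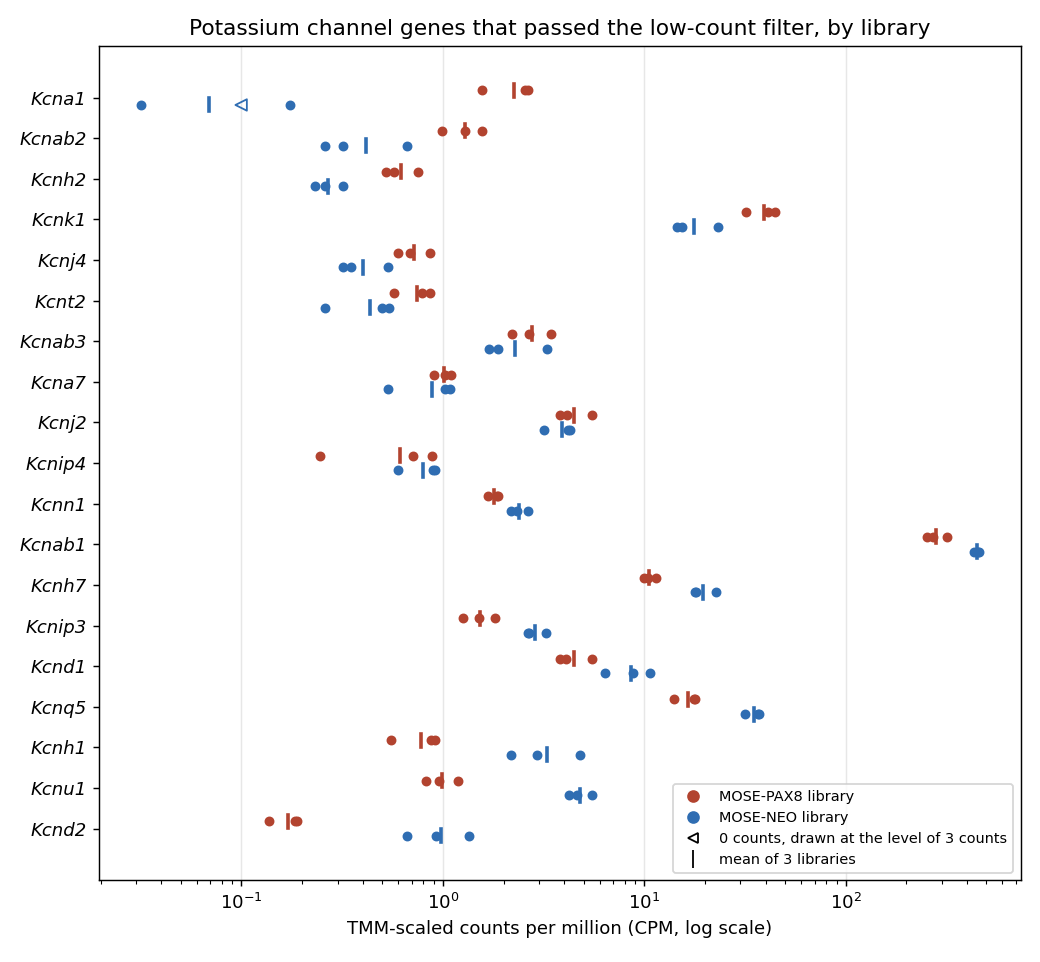
TMM-scaled CPM (x axis, log scale) of tested potassium channel genes in each MOSE-PAX8 library (red, upper row) and MOSE-NEO library (blue, lower row), with the mean of 3 libraries as a short line and a library with 0 counts as an open triangle at the level of 3 counts, ordered by log2 fold change. Kcnab1 lies above 250 CPM in every library, and Kcna1 lies above 1.5 CPM in each MOSE-PAX8 library and below 0.2 CPM in each MOSE-NEO library.

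Among voltage-gated subunits 2 of 9 tested rose and 5 fell. Kcna1, a delayed rectifier best known from axons (chromosome 6, 126640397 to 126646384, mm10), had 57, 84 and 83 counts in the MOSE-PAX8 libraries, or 1.56, 2.64 and 2.56 CPM, against 1, 4 and 0 counts in MOSE-NEO. The lines did not overlap, and no other tested gene of the set had so large a fold. The ratio of counts was 37.6, with an exact 95% counting interval of 15.9 to 117, and the log2 fold change was 5.14 ± 0.63 (SE, edgeR adjusted p = 0.000442). With so few counts in MOSE-NEO that estimate moved, to 6.8 without MOSE-NEO replicate 2 and 4.54 without MOSE-NEO replicate 3, and the call was kept. Kcnh2, which encodes the hERG-type channel of cardiac repolarisation, had 0.574, 0.754 and 0.524 CPM in MOSE-PAX8 and 0.318, 0.261 and 0.232 CPM in MOSE-NEO. Its values did not overlap and were 2.25-fold higher in MOSE-PAX8, on 62 counts against 23 (log2 fold change 1.17 ± 0.34 SE, edgeR adjusted p = 0.0284). This call rests on few counts. It was lost without any 1 of the 6 libraries (edgeR adjusted p from 0.0541 without MOSE-NEO replicate 1 to 0.0973 without MOSE-NEO replicate 3), and in DESeq2 the adjusted p was 0.15, over a range of 0.0264 to 0.213 in all alternatives.

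The 5 voltage-gated subunits that fell belong to the A-type, ether-a-go-go and M-type families. Kcnd2, which carries the A-type current of neurons and heart, had 5, 6 and 6 counts in MOSE-PAX8 and 29, 31 and 20 in MOSE-NEO, or 0.137, 0.189 and 0.185 CPM against 0.921, 1.35 and 0.664 CPM. It was 5.6-fold lower (log2 fold change -2.49 ± 0.4 SE, edgeR adjusted p = 0.00179) and was the voltage-gated gene with the steepest fall. Its relative Kcnd1, on the X chromosome, had 3.83, 5.53 and 4.07 CPM in MOSE-PAX8 and 8.8, 10.7 and 6.41 CPM in MOSE-NEO, a 1.93-fold fall (edgeR adjusted p = 0.0113). Kcnip3, which encodes a calcium-binding partner of these A-type channels that also acts as a transcriptional repressor, fell as well. It had 1.26, 1.82 and 1.51 CPM in MOSE-PAX8 and 3.24, 2.65 and 2.69 CPM in MOSE-NEO, 1.87-fold lower (edgeR adjusted p = 0.0137). Its call was lost without MOSE-PAX8 replicate 3 (edgeR adjusted p = 0.0518, over a range of 0.00764 to 0.251). The other partners of this channel type gave no call. Kcnip4 had 0.246, 0.88 and 0.709 CPM in MOSE-PAX8 against 0.89, 0.913 and 0.598 CPM in MOSE-NEO (edgeR adjusted p = 0.547), Kcnip2 was below the filter and Kcnip1 was at 0. These A-type genes were brought together after their values were seen.

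Of the ether-a-go-go family, Kcnh1 and Kcnh7 were lower in MOSE-PAX8. Kcnh1, a channel studied for its presence in proliferating and tumour cells, had 0.875, 0.911 and 0.555 CPM in MOSE-PAX8 and 2.92, 4.78 and 2.19 CPM in MOSE-NEO. The lines did not overlap, though MOSE-NEO replicate 2 stood above its group, and the fall was 4.17-fold (log2 fold change -2.06 ± 0.35 SE, edgeR adjusted p = 0.0023). Kcnh7, an hERG-related subunit of the nervous system, had 11.4, 10.4 and 9.99 CPM in MOSE-PAX8 and 22.7, 17.8 and 18 CPM in MOSE-NEO, 1.84-fold lower (edgeR adjusted p = 0.000843). Exons of Gca cover 4.57% of the Kcnh7 exon bases on the opposite strand, and Gca had 163 ± 13.4 CPM in MOSE-PAX8 and 220 ± 13.2 CPM in MOSE-NEO (SD, n = 3 each), a fall of 0.43 on the log2 scale (edgeR adjusted p = 0.00546). The part of Gca in the Kcnh7 counts was not tested. Kcnq5 had 17.6, 17.8 and 14.1 CPM in MOSE-PAX8 against 37.3, 36.6 and 31.7 CPM in MOSE-NEO. Both lines were tight, and the fall was 2.13-fold (log2 fold change -1.09 ± 0.12 SE, edgeR adjusted p = 0.000203).

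Kcna7, of the same family as Kcna1, did not pass, and had 1.01 ± 0.0992 CPM in MOSE-PAX8 and 0.878 ± 0.303 CPM in MOSE-NEO (log2 fold change 0.2 ± 0.32 SE, edgeR adjusted p = 0.669).

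Kcnk1 was the only one of the 11 K2P genes examined that was expressed, and it rose. Kcnk5, Kcnk6 and Kcnk16 lie outside the set. It had 1639, 1016 and 1330 counts in MOSE-PAX8, or 44.8, 31.9 and 41 CPM, and 486, 334 and 700 counts in MOSE-NEO, or 15.4, 14.5 and 23.2 CPM. The lowest MOSE-PAX8 library lay above the highest MOSE-NEO library, and the fold was 2.21 (log2 fold change 1.14 ± 0.19 SE, edgeR adjusted p = 0.00222). The gene lies on chromosome 8 between 125995170 and 126030685, and an antisense gene covers 8.01% of its exon bases. The other 10 K2P genes had at most 35 counts over all 6 libraries, reached by Kcnk4, whose exons overlap those of Catsperz over 13.1% of their length.

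Of the 5 calcium- and sodium-activated channels examined, which leave out Kcnma1, Kcnn3 and Kcnn4, Kcnu1 fell. It encodes a Slo family channel known from sperm, where it is opened by alkaline pH. Kcnu1 was placed in this class by its gene symbol and not by its gating. Its CPM was 0.82, 1.19 and 0.956 in MOSE-PAX8 and 5.53, 4.65 and 4.25 in MOSE-NEO, from 30, 38 and 31 counts against 174, 107 and 128. The lines stood far apart, and the fall was 4.86-fold (log2 fold change -2.28 ± 0.22 SE, edgeR adjusted p = 0.000128), the smallest adjusted p of the set. Kcnn1, a small-conductance calcium-activated channel, had 1.8 ± 0.116 CPM in MOSE-PAX8 and 2.39 ± 0.237 CPM in MOSE-NEO (SD, n = 3 each), and Kcnt2, a sodium-activated channel, 0.741 ± 0.149 and 0.433 ± 0.151 CPM. Neither passed, with edgeR adjusted p of 0.155 for Kcnn1 and 0.149 for Kcnt2, although the libraries of the lines did not overlap for either.

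Inward rectifiers showed no called difference. Kcnj2, which sets the resting potential of muscle and heart, had 4.13, 3.8 and 5.52 CPM in MOSE-PAX8 and 4.19, 4.3 and 3.19 CPM in MOSE-NEO. The values overlapped (log2 fold change 0.2 ± 0.21 SE, edgeR adjusted p = 0.491). Kcnj16, the excluded gene, lies 38.2 kb from Kcnj2 on chromosome 11 and had 334, 299 and 531 counts in MOSE-PAX8 and 0 in each MOSE-NEO library. Kcnj4, of the same strongly rectifying group as Kcnj2, had 0.684, 0.597 and 0.863 CPM in MOSE-PAX8 and 0.318, 0.348 and 0.531 CPM in MOSE-NEO. Its libraries did not overlap, but the log2 fold change of 0.83 ± 0.34 (SE) had an edgeR adjusted p of 0.0937. The other 12 inward rectifiers were below the filter.

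**Figure D3:**
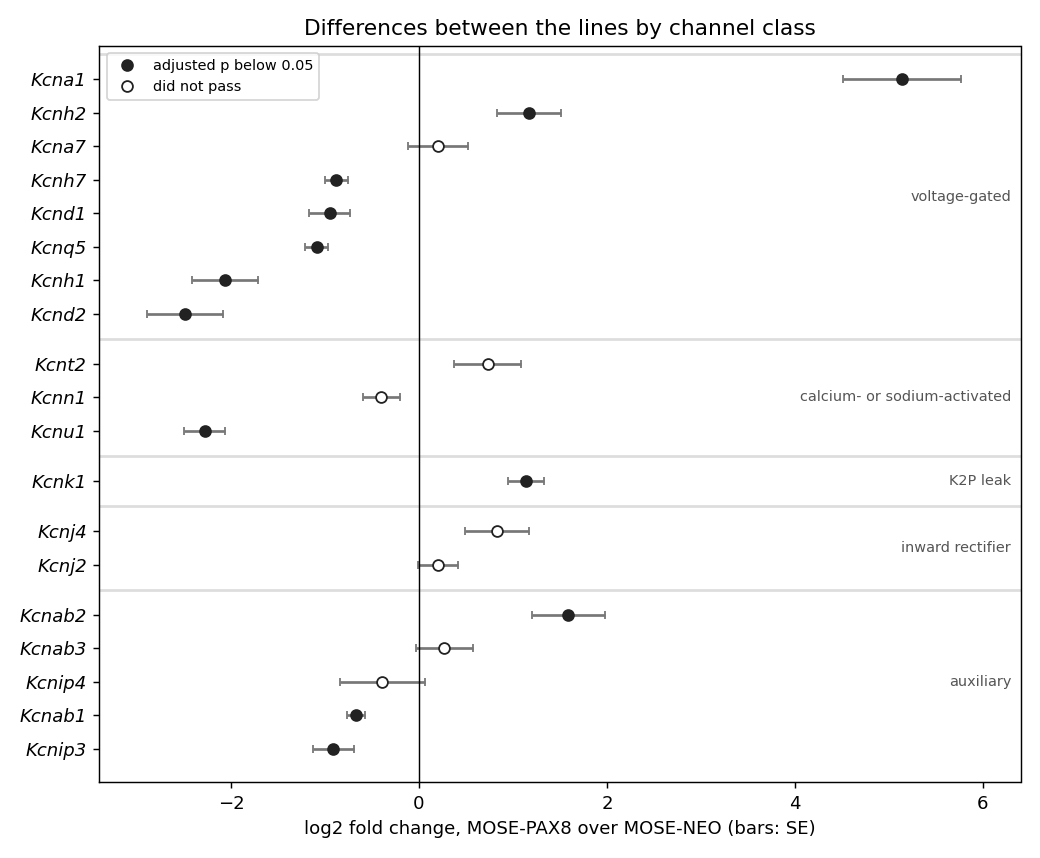
Log2 fold change of MOSE-PAX8 over MOSE-NEO (x axis) with its SE for tested potassium channel genes, grouped by class; filled points have an edgeR adjusted p below 0.05. Kcna1 stands apart at 5.14, and the other genes plotted lie between -2.49 and 1.59.

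The auxiliary genes Kcnab1 and Kcnab2 moved in opposite directions. Kcnab1 had 320, 252 and 271 CPM in MOSE-PAX8 and 432, 457 and 455 CPM in MOSE-NEO. The lines did not overlap, and the fall was 1.59-fold (log2 fold change -0.67 ± 0.1 SE, edgeR adjusted p = 0.00129). Kcnab2, of the same subunit family and broadly present in neurons, had 36, 41 and 51 counts in MOSE-PAX8, or 0.985, 1.29 and 1.57 CPM, and 10, 6 and 20 counts in MOSE-NEO, or 0.318, 0.261 and 0.664 CPM. It was 3.02-fold higher (log2 fold change 1.59 ± 0.39 SE, edgeR adjusted p = 0.0134). The call was lost without MOSE-PAX8 replicate 3 (edgeR adjusted p = 0.0575), MOSE-NEO replicate 1 (0.0537) or MOSE-NEO replicate 2 (0.0524), over a range of 0.00532 to 0.0813. Kcnab3, the third gene of the family, had 2.21, 3.46 and 2.68 CPM in MOSE-PAX8 and 3.3, 1.87 and 1.69 CPM in MOSE-NEO, which overlapped (edgeR adjusted p = 0.533).

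A further 12 genes had at least 10 counts but stayed below the filter, and in Kcnh3 nearly all of them came from MOSE-PAX8. Kcnh3, an ether-a-go-go subunit of the forebrain, had 19, 16 and 10 counts in MOSE-PAX8 and 0, 1 and 2 in MOSE-NEO, a ratio of 12.6 with a counting interval of 4.04 to 63.3. With no low-count filter, where 24.7% of 17307 genes were called, edgeR called Kcnh3 higher (adjusted p = 0.00255), and DESeq2 gave it an adjusted p of 0.0069. Kcnq1, the channel of heart and secretory epithelia, had 3, 6 and 3 counts in MOSE-PAX8 and 0, 1 and 0 in MOSE-NEO, and was not called (edgeR without the filter, adjusted p = 0.0799). Kcnip2 had 4, 6 and 2 counts in MOSE-PAX8 and 28, 5 and 6 in MOSE-NEO, highest in MOSE-NEO replicate 1 (edgeR without the filter, adjusted p = 0.064). None of Kcna4, Kcnh4, Kcnj9, Kcnj14, Kcnk4, Kcnmb4 and Kcnt1 was called without the filter, with edgeR adjusted p from 0.0867 to 0.628. These 12 genes were singled out by their counts after the values were seen.

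**Figure D4:**
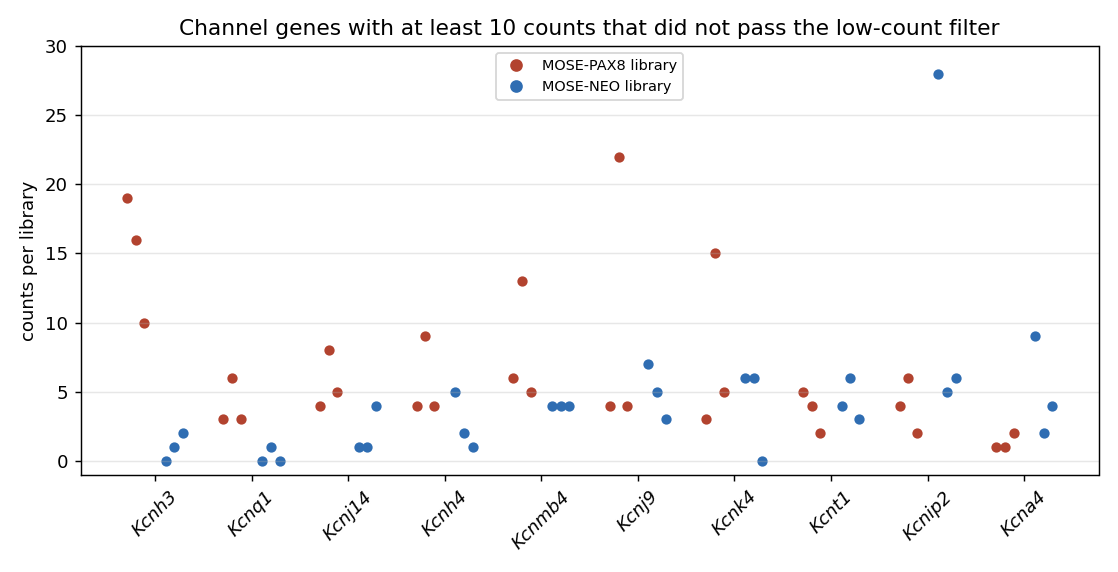
Counts per library (y axis) of potassium channel genes with at least 10 counts that did not pass the low-count filter, for MOSE-PAX8 (red, left) and MOSE-NEO (blue, right), with replicates 1 to 3 from left to right, ordered by the ratio of counts. Kcnh3 is at 10 to 19 counts in MOSE-PAX8 and 0 to 2 in MOSE-NEO, while Kcna4 is at 1 to 2 in MOSE-PAX8 and 2 to 9 in MOSE-NEO.

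Genes of potassium handling outside the Kcn symbols were taken from a list of 38, of which 6 lie in the excluded regions. Of 20 tested, 7 rose and 4 fell, beside 17.9% higher and 16.1% lower over all tested genes. In the sodium-potassium pump, Atp1b1, its most abundant beta subunit here, had 802 ± 110 CPM in MOSE-PAX8 and 560 ± 75.1 CPM in MOSE-NEO (SD, n = 3 each), 1.43-fold higher (edgeR adjusted p = 0.0161). Atp1b2 was 4.16-fold higher (edgeR adjusted p = 0.000522). Hcn2, a pacemaker cation channel, rose 1.97-fold to 7.21 ± 0.344 CPM, against 3.67 ± 0.578 CPM in MOSE-NEO (edgeR adjusted p = 0.00179). Of the cotransporters that move potassium with chloride, Slc12a2 rose 1.3-fold (edgeR adjusted p = 0.00405) and Slc12a4 fell 1.25-fold (edgeR adjusted p = 0.013). Of the subunits of the volume-regulated anion channel, Lrrc8d rose 1.54-fold (edgeR adjusted p = 0.00291) and Lrrc8e fell 1.79-fold (edgeR adjusted p = 0.0286).

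Several of the genes above are best known from neurons or muscle, so markers of other cell types are given beside them. Over all tested genes, 17.9% were called higher and 16.1% lower. Of 8 neuronal markers Map2 alone was tested, and it was higher in MOSE-PAX8 at 50.9 ± 8.43 CPM against 0.178 ± 0.128 CPM in MOSE-NEO (SD, n = 3 each). Snap25 was at 0, and the other 6 had at most 6 counts per line. The summed level of this list was 41.3 to 56.4 CPM in MOSE-PAX8 libraries and 0.13 to 0.365 CPM in MOSE-NEO. Smooth muscle markers summed to 785 to 1330 CPM in MOSE-PAX8 and 260 to 312 CPM in MOSE-NEO, with 4 of 6 tested higher, 1 lower, and Myh11 at 3 counts in each line. Most of the MOSE-NEO sum was Smtn, the marker that was lower, at 214 CPM in MOSE-PAX8 and 279 CPM in MOSE-NEO. Among the higher ones, Acta2 averaged 549 CPM in MOSE-PAX8 and 12.3 CPM in MOSE-NEO, and Tagln 283 and 2.82 CPM. Cardiac and skeletal muscle markers summed to 0.82 to 1.7 CPM in MOSE-PAX8 and 1.48 to 3.85 CPM in MOSE-NEO, with Myh7 at 0. Epithelial and mesothelial markers summed to 5750 to 6870 CPM in MOSE-PAX8 and 9400 to 10500 CPM in MOSE-NEO, with 5 of 8 tested lower and 0 higher. Leukocyte markers summed to 4.81 to 6.5 CPM in MOSE-PAX8 and 1.96 to 3.37 CPM in MOSE-NEO. Of 2 tested, Ptprc rose, with 60, 49 and 87 counts in MOSE-PAX8 and 0, 0 and 1 in MOSE-NEO (edgeR adjusted p = 0.000103), while Adgre1 was at 0. Endothelial markers summed to at most 0.524 CPM in MOSE-PAX8 and 1.03 CPM in MOSE-NEO, with Cdh5 at 0. Fibroblast markers summed to 3290 to 3500 CPM in MOSE-PAX8 and 3800 to 4410 CPM in MOSE-NEO, with 2 of 5 tested and 0 called. Col1a1 and Dcn averaged 2010 and 1420 CPM in MOSE-PAX8 and 2540 and 1570 CPM in MOSE-NEO, while Pdgfra, Pdgfrb and Lum were below the filter. Granulosa markers summed to 24.4 to 26.1 CPM in MOSE-PAX8 and 27.3 to 32.3 CPM in MOSE-NEO. Of these, 1 of 2 tested was higher and 1 lower, with Fshr and Cyp19a1 at 0. In bulk RNA, fewer cells of a kind and less RNA per cell cannot be told apart, and the part of these markers in the channel results was not tested.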

How the data were processed

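Total RNA from 3 libraries each of MOSE-PAX8 and MOSE-NEO was sequenced, with groups and replicate numbers taken from the titles. The authors deposited 1 table of raw counts per gene for each library. The submitters' processing notes name cutadapt 1.13, STAR, HTSeq 0.6.1p1 and DESeq2, and the build mm10, without their roles. The sources used here do not give the annotation, the strand setting or how multiply aligned reads were counted, so genes with close copies or antisense partners are uncertain. Symbols, mm10 coordinates and union exon lengths came from GENCODE M21, which matched 24991 of 25006 identifiers, and promoters from RefSeq (GRCm38.p6).

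Counts were fitted over the whole table with edgeR 4.0.16 in R 4.3.3 (quasi-likelihood test, TMM factors, filterByExpr, Benjamini-Hochberg adjustment), and calls were made at 0.05. The fit was tested on simulated counts. CPM and FPKM use the TMM factors, and the SE of a log2 fold change was worked back from its test statistic. A count of 0 was given 3 counts as its limit, and intervals are exact 95% binomial intervals; both cover counting error only. Between libraries of the same line, chi-square per degree of freedom was 13.3 or more, so each was kept as its own sample. MOSE-PAX8 replicate 2 and MOSE-NEO replicate 1 were richer in lincRNA reads (0.33% and 0.317% of counts) than the other 4 (0.146% to 0.195%).

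Named members are those called, the 5 with the highest FPKM in each line, any with 0 counts in one line and at least 10 in the other (none met this), and expressed members with a mean of at least 5 CPM that were not called. A few of these genes are not reported here. Other members are named by class and were chosen after their values were seen. The members, lists and alternatives were chosen with earlier results of these data known. Alternatives were DESeq2 1.42.0, limma-voom (limma 3.58.1), other factors and filters, a replicate block, left-out libraries, a local chromosome offset over 51 genes, a test against a fold of 1.5, and other levels for expression.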

Additional observations from a re-analysis of the deposited data

How the results depend on the processing

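Of the 12 called genes, 6 (Kcna1, Kcnd2, Kcnh1, Kcnk1, Kcnq5 and Kcnu1) were called under every alternative that could test them. Kcna1, which has 5 counts in MOSE-NEO, ranged from 4.54 to 6.8 on the log2 scale. The number of members called higher was 4, and 2 with the filter of 1 CPM in 3 libraries, which did not test Kcnab2, Kcnh2 or Kcnd2, 2 after dropping both lincRNA-rich libraries and 2 in the test against a fold of 1.5. The number called lower was 8, and 4 in the test against a fold of 1.5, where Kcnab1, Kcnd1, Kcnh7 and Kcnip3 were lost (edgeR adjusted p of 0.529, 0.194, 0.0576 and 0.251). With 1 library left out the numbers were 3 to 4 higher and 7 to 8 lower. Over the whole table the 1.5-fold test called 700 genes higher and 370 lower. With 1 library left out, higher calls numbered 1545 to 2065 and lower calls 1314 to 1843, both fewest when MOSE-PAX8 replicate 3 was dropped. The local chromosome offset changed no call of a named member. The expressed members of MOSE-PAX8 numbered 11 at 1 CPM and 8 at 0.5 FPKM, and 18 to 19 with 1 library left out. Same-numbered libraries correlated at -0.488, 0.065 and 0.478 in their deviations from the line means, so the numbers were not taken as pairs. Differently numbered libraries ranged from -0.714 (MOSE-PAX8 replicate 2 with MOSE-NEO replicate 3) to 0.671 (MOSE-PAX8 replicate 2 with MOSE-NEO replicate 1, the lincRNA-rich libraries). A block by replicate number does not model this shared spread. With the replicate number as a block 3 members were called higher and 8 lower, Kcnh2 being the call lost (edgeR adjusted p = 0.0644). Genes with only a few counts per library were not tested at this depth.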

Other observations

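Of the 12 genes with at least 10 counts that did not pass the filter, 9 had their highest MOSE-PAX8 level in replicate 2, and the summed level of the 12 was 1.64, 3.65 and 1.48 CPM in MOSE-PAX8 replicates 1 to 3. In MOSE-NEO replicates 1 to 3 the sum was 2.26, 1.61 and 1.23 CPM, with 5, 4 and 3 genes at their highest. Without Kcnip2, which gave 28 of the 71 counts in MOSE-NEO replicate 1, the sums were 1.53, 3.46 and 1.42 CPM in MOSE-PAX8 and 1.37, 1.39 and 1.03 CPM in MOSE-NEO, so MOSE-PAX8 replicate 2 still stood above its line and MOSE-NEO replicate 1 did not. Kcnj9 had 4, 22 and 4 counts in MOSE-PAX8 and 7, 5 and 3 in MOSE-NEO, and Kcnk4 had 3, 15 and 5 in MOSE-PAX8 and 6, 6 and 0 in MOSE-NEO. The 27 genes with 1 to 9 counts summed to 0.574, 0.597 and 0.339 CPM in MOSE-PAX8 and 0.477, 0.348 and 0.432 CPM in MOSE-NEO. Of these genes, 5, 11 and 7 were highest in MOSE-PAX8 replicates 1, 2 and 3. Their sums in that line rest on 21, 19 and 11 counts, too few to tell whether they share the pattern. Among the 20 tested genes, 11 were highest in MOSE-PAX8 replicate 2 among that line's libraries, and in MOSE-NEO 7 were highest in replicate 1 and 9 in replicate 2. MOSE-PAX8 replicate 2 had 0.33% of its counts in lincRNA genes, and the part of this in the values was not tested.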
